A study of Mus musculus with 7 samples.

Results

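The study asked how β-cells respond to short high-fat feeding, and its chow-fed mice give gene levels in sorted cells without that diet. The transcriptome of these chow-fed pancreatic β-cells is described from 4 libraries of sorted cells, which are all the libraries of mice on a chow diet (CD) among the 7 β-cell libraries of the study. The libraries are named CD1 to CD4 after their sample titles, and values of 4 libraries are given in that order. The mice were wild-type C57BL/6N (C57BL/6NCrl from Charles River Laboratories), and had the chow or a high-fat diet for 2 days, starting at 12 weeks of age. Islets were dispersed, and β-cells were separated from α-cells by FACS on a pair of signals, ZIGIR, a dye that reports granule zinc, and Ex4-Cy5, a Cy5-labelled exendin-4 that marks cells with the GLP-1 receptor (Glp1r). Each library was made from a separate mouse with a stranded mRNA kit, and the libraries of the high-fat diet were not used here. The values are therefore levels, ranks and the spread between 4 mice, with no test of a difference, and a level in bulk RNA cannot tell the number of cells with a transcript from the amount per cell.

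A β-cell is a secretory cell built around the making of insulin. Preproinsulin enters the endoplasmic reticulum (ER), where chaperones and disulfide isomerases fold it, and the prohormone convertases and carboxypeptidase E cut it in the granule, which also holds amylin (Iapp), granins and zinc. Glucose enters through a transporter, is metabolized, and closes ATP-sensitive potassium channels, so that calcium enters and granules fuse. In the mouse insulin comes from a pair of genes, Ins1 and Ins2.

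The libraries held 12037995, 11145642, 22557957 and 13949807 counts on gene symbols, and 1 count in CD2, the shallowest, was worth 0.0897 CPM (counts scaled to a library total of 1000000). Of 24035 symbols, 8537 had no count in any of the 4 libraries and 11055 reached 1 CPM in every library, of which 10714 were protein-coding. On the mean of the libraries, 12010 genes reached 1 CPM, 8597 reached 10 CPM, 1558 reached 100 CPM, 47 reached 1000 CPM and 4 reached 10000 CPM, which is 1% of the counts. CD2 and CD3 stood apart in some respects. CD2 had the highest level of each of 18 acinar genes, as described further on, and fewer genes with few counts: 1171, 331, 1977 and 1978 genes had 1 to 9 counts, or 1253, 331, 2379 and 2118 after each library was thinned at random to the total of CD2. In CD2, 182 genes without a count were at 1 CPM or more in all 3 others, against 21, 0 and 1 such genes for CD1, CD3 and CD4. CD3 was the library in which most of the strongly variable genes were highest.

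The insulin genes stood far above all others. Ins2 had 215885, 211799, 211538 and 213288 CPM and Ins1 had 73895, 73901, 65059.5 and 76834 CPM, so that the pair held 28.98, 28.6, 27.7 and 29.01% of the counts, 28.6% ± 0.630 on average (SD, n = 4). Wilson 95% intervals reached at most 0.02399 percentage points to either side for Ins2 and cover counting error only. Ins2 was among the most even genes of the libraries, with a coefficient of variation (CV, the SD as a percent of the mean) of 0.935%, whereas Ins1 had 7.04%, with CD3 below the others. Per kilobase of the longest annotated transcript, the Ins2 level was 3.38, 3.32, 3.76 and 3.21 times that of Ins1, highest in CD3. The genes lie at chr7:142678656-142743381, minus strand, and chr19:52264297-52265476, plus strand (GRCm38). Few 50-base stretches of their transcripts recur exactly elsewhere: 0.465% of those of Ins2 and 0.691% of those of Ins1 also occur in a transcript of another annotated gene. This measure counts exact matches only, so it does not tell how similar the genes are to each other.

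Iapp, which encodes amylin, had 20984, 17826, 22139 and 21188 CPM, and Chga, the granule matrix protein chromogranin A, had 17421, 15700.4, 14559.6 and 14719 CPM. They were the genes of ranks 3 and 4 in every library, and their CVs were 9.13% and 8.43%. For each 1000 counts of insulin there were 72.4, 62.4, 80.04 and 73.03 counts of Iapp, lowest in CD2. Ins1, Ins2, Iapp and Chga, the 4 genes taken here as markers of the cells, were thus the 4 highest of the table.

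The promoter of Ins1 is shown because it drives the second most counted gene and holds the short motifs that β-cell factors are known to bind: TAAT, the core of homeodomain sites such as those of Pdx1, and CATCTG, an E-box bound by Neurod1 with its partners. The stretch runs from 250 bases before to 50 bases after the RefSeq start (GRCm38.p6, chr19:52264047-52264346, plus strand), with every match on either strand in capitals. It holds 3 TAAT and 2 CATCTG, which do not overlap. The last of these, a CATCTG, ends 47 bases after the start. Among 27025 RefSeq promoters of this length, 58.3% hold at least 1 TAAT, 17.2% hold at least 1 CATCTG and 1.86% hold 2 or more CATCTG.
Ins1: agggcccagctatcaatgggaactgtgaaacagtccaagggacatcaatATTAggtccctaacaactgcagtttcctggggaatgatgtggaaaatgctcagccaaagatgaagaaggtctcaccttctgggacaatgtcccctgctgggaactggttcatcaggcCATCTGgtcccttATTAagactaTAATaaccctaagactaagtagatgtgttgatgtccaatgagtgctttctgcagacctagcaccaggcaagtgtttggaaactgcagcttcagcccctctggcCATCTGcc

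**Figure D1:**
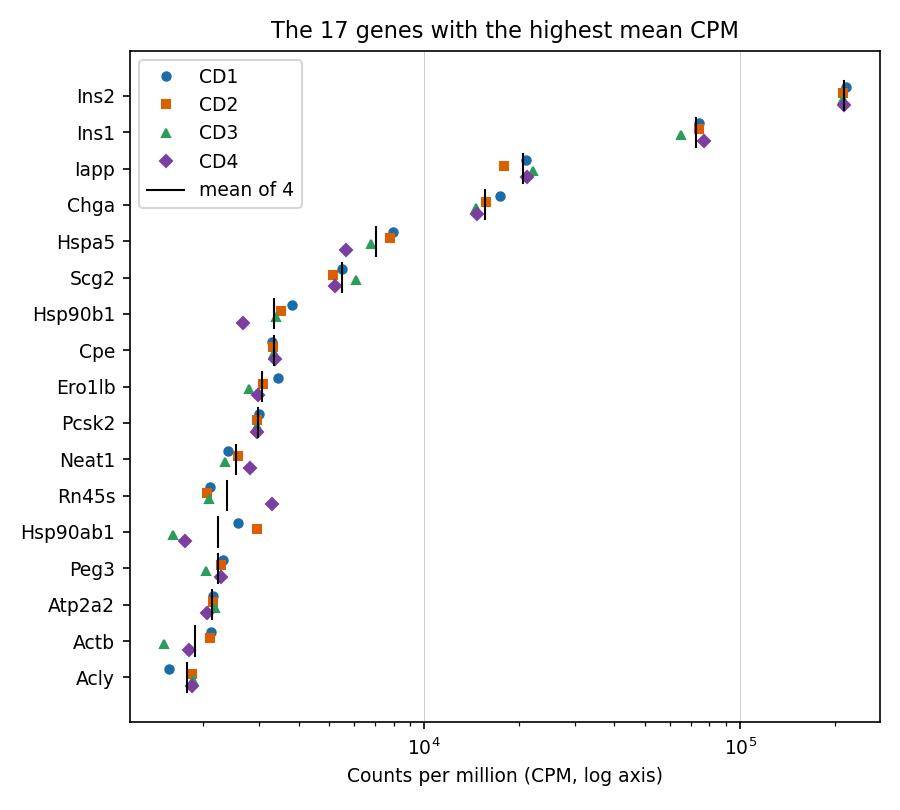
CPM (log axis) of the 17 genes with the highest mean, with 1 point for each of the 4 chow libraries and a black bar at their mean. The 4 libraries of Cpe and Pcsk2 lie nearly on each other, while Hsp90ab1 has CD1 and CD2 to the right of CD3 and CD4, and Rn45s has CD4 alone at 3289 CPM.

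Below Ins2, Ins1, Iapp and Chga came an ER chaperone, a granin and processing enzymes. Hspa5, the ER chaperone BiP, had 7958, 7769, 6779 and 5652 CPM and was rank 5. Scg2, secretogranin II, had 5492, 5131, 6072 and 5209 CPM, Cpe (carboxypeptidase E) 3306, 3327, 3337 and 3367 CPM, and Pcsk2 (the prohormone convertase PC2) 3004, 2964, 2964 and 2963 CPM. Ranks 7 to 10 on the mean were Hsp90b1 (the ER chaperone GRP94, 3351 ± 483 CPM), Cpe, Ero1lb (the ER oxidase of disulfide bond formation in β-cells, 3072 ± 272 CPM) and Pcsk2, given as mean ± SD of 4 libraries. Ranks 11 to 17 were the nuclear noncoding RNA Neat1 (2531 CPM), the ribosomal RNA precursor Rn45s (2380.1), the cytosolic chaperone Hsp90ab1 (2221), the imprinted zinc finger gene Peg3 (2219.9), the ER calcium pump gene Atp2a2 (2128), Actb (1880.1) and the ATP-citrate lyase gene Acly (1771 CPM). The immediate early gene Fosb (1647 CPM) and the MAGE family gene Maged1 (1644 CPM) were ranks 19 and 20.

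The counts were concentrated in few genes. The 10 highest genes of each library held 35.5, 34.5, 33.9 and 34.9% of its counts (34.7% on average), the 100 highest 45.02, 44.04, 42.8 and 44.1% and the 1000 highest 66.2, 65.4, 64.2 and 65.3%. To reach 50% of the counts took 212, 238, 281 and 243 genes, and to reach 90% took 4507, 4552, 4631 and 4592 genes. CD1 was the most concentrated library and CD3 the least at each of these points. Once Ins1 and Ins2 were set aside, the 10 highest of the other genes held 9.33% of the remaining counts. Of the 20 highest genes of each library, 15 were shared by all 4 and 24 appeared in at least 1. For the 100 highest these numbers were 82 and 122, and for the 1000 highest 805 and 1222.

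**Figure D2:**
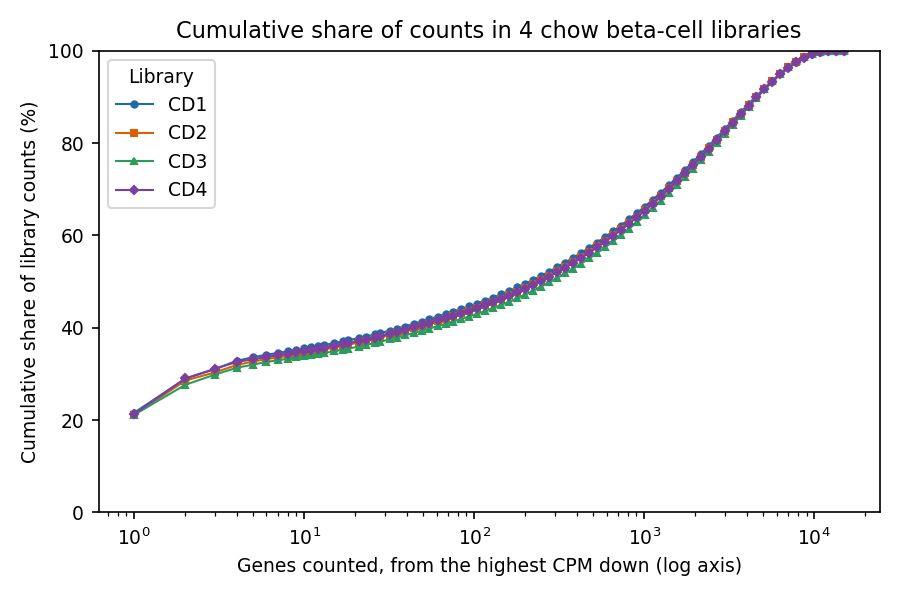
Cumulative share of library counts (%) against the number of genes counted from the highest CPM down (log axis), with 1 line for each of the 4 chow libraries. All lines start at Ins2 with 21.2 to 21.6% and reach 90% after 4507 to 4631 genes, with CD3 lowest from 10 to 1000 genes.

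Ranks by counts favour long transcripts, so protein-coding genes were also ranked by CPM per kilobase of the longest annotated transcript. Ins2 (232165 ± 2172 CPM per kb, mean ± SD of 4), Ins1 (68194 ± 4802), Iapp (24475 ± 2234) and Chga (8285 ± 698) kept the first 4 places. Short transcripts moved up behind them: the metallothionein genes Mt2 (2455 ± 573 CPM per kb) and Mt1 (1259.7 ± 238) took places 5 and 9, and the secretory granule gene Resp18 (1154 ± 91.5) place 10. Between them stood Scg2, Hspa5 and Cpe at 2177, 1917 and 1575 CPM per kb. The mean for somatostatin (Sst), a hormone of δ-cells, was place 13 with 936 ± 452 CPM per kb, ahead of G6pc2, the islet glucose-6-phosphatase subunit (866), Herpud1 of ER-associated degradation (733), Calr (calreticulin, 709), Jund (683), Eef1a1 (translation elongation, 658) and Scg3 (secretogranin III, 657). Neighbours in this order often lie within their spread. Mt2 and Scg2 are an example, since the SD of Mt2 over 4 mice exceeded the gap between them. Of these first 10 genes, 9 stayed in the first 10 when the union of exons was the length and 7 when the median transcript was.

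Granins and other granule peptides held 2.92, 2.696, 2.66 and 2.57% of the counts, and all 11 genes of that list had at least 10 CPM. Behind Chga and Scg2 came Scg3 with 1560.5, 1673, 1515 and 1514 CPM and Chgb with 1451, 1388, 1299 and 1126 CPM. The secretory granule gene Resp18 had 863 ± 68.4 CPM (mean ± SD), Pcsk1n, the inhibitor of PC1/3, 713 ± 96.5, and Ucn3, a peptide of mature mouse β-cells, 711 ± 125. The lowest were Vgf with 91.3, 70.97, 100.3 and 115 CPM and Nnat, an imprinted gene of signal peptide processing in β-cells, with 38.6, 49.3, 39.01 and 39.4 CPM. Scg5, which encodes the PC2 chaperone 7B2, stood out by a single library: it had 499.8, 495, 722 and 524 CPM, with CD3 above the others.

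Some of the enzymes that cut and finish the prohormones were very even between the libraries. The 8 that were counted as a class outside the granin and ER lists held 0.826, 0.8205, 0.813 and 0.824% of the counts, a CV of 0.696% that Pcsk2 and Cpe, the most counted of them, largely set. The share of the full list of 12 genes had a CV of 2.36%, and its genes had a median CV of 6.34%. Pcsk2 had the lowest CV of all 1558 genes with at least 100 CPM, 0.678%, and Cpe was next with 0.764%, against 0.493% and 0.465% that counting alone would give. Pcsk1, the convertase PC1/3, was lower than Pcsk2, with 659, 591, 578 and 599 CPM, which is 120.5 CPM per kb against 629.6 for Pcsk2. Pam, which amidates peptides such as amylin, had 444, 456, 434 and 419.9 CPM. Cpd, the related carboxypeptidase D, was the lowest of the 12 genes of the full list with 133, 93.6, 112 and 145 CPM.

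Of 21 genes of the granule membrane and of exocytosis, 20 had at least 10 CPM and 18 at least 100 CPM, and together they held 0.938, 0.911, 0.987 and 0.985% of the counts. G6pc2 led with 1611, 1337, 1890.1 and 1719 CPM. The phosphatase-like granule proteins Ptprn2 (phogrin) and Ptprn (IA-2) followed with 1211, 1156, 1142 and 1153 CPM and 1108, 978, 959.6 and 1267 CPM. Slc30a8, the granule zinc transporter whose cargo the sorting dye reports, had 996, 1093, 1086 and 1082 CPM, lowest in CD1. Of the synaptotagmin genes listed, Syt13 was highest with 902, 1034, 1014 and 1018 CPM, above Syt4 at 391 ± 18.8 and the calcium sensor of insulin release Syt7 at 306 ± 16.4 CPM, and the order is the same per kilobase. Among the SNARE genes, Vamp2 had 213 ± 22.04 and Snap25 183 ± 16.2 CPM. Stx1a, which encodes syntaxin 1A, was the only member under 10 CPM, with 9.304, 10.05, 6.92 and 8.96 CPM. The most even member was the islet autoantigen gene Ica1 with 125, 124, 129 and 129 CPM.

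Genes of protein handling in the ER held 3.497, 3.42, 3.24 and 2.93% of the counts, the largest share of any class counted apart from the insulin genes and the remaining protein-coding genes. All 48 listed genes were counted, 47 had at least 10 CPM and 40 at least 100 CPM. The share was lowest in CD4, where 21 of the 47 genes had their lowest value, against 16.9% of all 8597 genes. Hspa5, Hsp90b1 and Calr each stood in the order CD1, CD2, CD3, CD4 from high to low, with 3812, 3529, 3389 and 2676 CPM for Hsp90b1 and 1746, 1700.5, 1465 and 1279.7 CPM for Calr. The disulfide isomerase genes P4hb, Pdia3 and Pdia6 had 1201 ± 33.9, 1454 ± 141 and 793 ± 46.3 CPM, and the chaperone gene Hyou1 had 1575 ± 53.1 CPM. Of the genes that sense or carry the unfolded protein response, the transcription factor gene Atf4 had 791, 754, 773 and 661 CPM and Xbp1 498, 485, 509 and 456 CPM. The sensor genes Atf6, Eif2ak3 (PERK) and Ern1 (IRE1) had 219 ± 8.65, 168 ± 11.2 and 141 ± 9.198 CPM. Ddit3 (CHOP), a factor of the late stress response, had 325, 299, 331 and 233 CPM. The lowest members were Ero1l, the other ER oxidase, with 50.3, 34.3, 37.1 and 44.4 CPM, and the translocon subunit gene Sec61g with 3.07, 3.14, 0.975 and 1.79 CPM.

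The promoter of Hspa5, the most counted gene outside the granule cargo, is shown for its ER stress element, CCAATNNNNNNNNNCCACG, which ATF6 is known to bind with NF-Y. The stretch has the same extent relative to the start (GRCm38.p6, chr2:34771840-34772139, plus strand), and the match on either strand is in capitals. There is 1 match, and 0.1295% of the 27025 promoters hold this exact form.
Hspa5: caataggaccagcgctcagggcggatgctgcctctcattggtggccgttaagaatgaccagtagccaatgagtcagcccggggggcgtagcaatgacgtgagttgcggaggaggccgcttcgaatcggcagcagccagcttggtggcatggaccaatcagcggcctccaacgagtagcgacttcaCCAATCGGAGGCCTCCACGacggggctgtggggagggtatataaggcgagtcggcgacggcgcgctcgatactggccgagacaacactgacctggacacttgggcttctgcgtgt

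The transcription factors of β-cell identity were expressed at moderate levels. Of 21 listed genes, 19 had at least 10 CPM and 9 at least 100 CPM. Mlxipl, the glucose-responsive factor ChREBP, was highest with 364, 441, 386 and 524 CPM, followed by Pax6 with 225, 307, 279 and 237 CPM, Insm1 with 178 ± 38.01 and Mafa with 199, 164, 139 and 189.8 CPM. Pdx1, the factor that gives the pancreas and then the β-cell its identity, had 80.2, 90.1, 85.3 and 85.4 CPM and, with 4.75%, the lowest CV of the 19. Neurod1, Nkx6-1 and Nkx2-2 had 164 ± 24.7, 143 ± 19.8 and 124 ± 13.1 CPM. The pair of forkhead genes differed: Foxa2 had 28.1, 10.5, 24.6 and 22.3 CPM, lowest in CD2, and Foxa1 had 0.415, 0, 0.0443 and 0.143 CPM, which is under the limit of 3 counts (0.133 to 0.269 CPM) in all libraries but CD1. Mnx1 had 3.99, 12.8, 7.31 and 11.4 CPM.

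Genes of precursors and of immature or dedifferentiated β-cells were at low levels. None of the 10 listed genes in the table reached a mean of 10 CPM. The neuropeptide gene Npy had 3.49, 15.6, 3.103 and 6.88 CPM, highest in CD2. Aldh1a3, known from failing β-cells, had 1.41, 0, 2.26 and 2.37 CPM, and the endocrine precursor factor gene Neurog3 had 0, 10, 2 and 1 counts. Gast (gastrin) had 0, 0, 5.098 and 0.4301 CPM and was found almost only in CD3.

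The disallowed genes, which are active in most tissues and known to be kept silent in β-cells, were all low. None of 20 reached a mean of 10 CPM, and 4 (Hk2, Pdgfra, Mgst1 and Fcgrt) had no count in any library. Ldha, lactate dehydrogenase A, had 0.748, 0.179, 0.443 and 0.358 CPM, and Slc16a1, the pyruvate and lactate carrier MCT1, had 0.0831, 1.44, 0.133 and 0.4301 CPM. The low-Km hexokinase gene Hk1 had 0, 12, 0 and 0 counts. The highest of the list were Lmo4 with 2.33, 1.88, 12.9 and 4.59 CPM, led by CD3, and Cxcl12 with 5.23, 1.44, 1.73 and 5.59 CPM. The highest sum of the 20 genes in a library was 30.4 CPM, in CD3.

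The machinery that couples glucose to calcium entry was well represented, with 16 of 17 listed genes at 10 CPM or more. Abcc8, the sulfonylurea receptor subunit of the ATP-sensitive potassium channel, had 1325, 1376, 1176 and 1464 CPM, and its partner Kcnj11 had 159, 156, 240.0 and 215 CPM, which are 274 and 61.3 CPM per kb. Slc2a2, the glucose transporter GLUT2, had 609, 422, 466 and 469.6 CPM, highest in CD1. Of the pore subunits of voltage-gated calcium channels, Cacna1d had 179 ± 13.6, Cacna1a 97.8 ± 14.2 and Cacna1c 89.95 ± 6.66 CPM. The potassium channel gene Kcnk16 had 149 ± 24.01 CPM, and the taste-type cation channel gene Trpm5 had 152 ± 31.8 CPM. The only member near the floor was Ano1, a calcium-activated chloride channel gene, with 9, 0, 5 and 0 counts.

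Listed receptor genes ranged from well expressed to not detected. Of the 16 listed, Prlr, the prolactin receptor, led with 649.8, 503, 559 and 495 CPM, followed by Adra2a, the α2A-adrenergic receptor, with 339, 265, 249.9 and 339 CPM and the somatostatin receptor gene Sstr3 with 195 ± 28.8 CPM. Glp1r, the receptor that the sorting ligand binds, had 189, 179, 199 and 205 CPM and a CV of 5.81%, and the GIP receptor gene Gipr had 147, 169, 137 and 175 CPM. The glucagon receptor gene Gcgr had 41.5, 50.1, 73.4 and 46.2 CPM and the insulin receptor gene Insr 45.7, 32.4, 52.8 and 54.2 CPM. The fatty acid receptor gene Ffar1 had 19.5 ± 2.88 CPM and Gpr119 7.75 ± 1.47 CPM. The leptin receptor gene Lepr had no count in any library, which by counting error alone allows up to 0.133 CPM in CD3, the deepest library. For CD2 the same limit is 0.269 CPM, but a count of 0 there bounds the level less well. In CD2, 182 genes without a count were at 1 CPM or more in every other library.

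In glucose metabolism the list of glycolysis and pyruvate genes held 36 members, of which 30 had at least 10 CPM. Pkm led with 579, 593, 525 and 589.6 CPM, then Aldoa with 453, 448, 526 and 532 CPM and Mdh1, the cytosolic malate dehydrogenase, with 380.5, 364, 362 and 343 CPM. Pcx, the pyruvate carboxylase of anaplerosis, had 195, 175, 176 and 203 CPM and Pdha1 of pyruvate dehydrogenase 105 ± 16.2 CPM. Some enzymes of the same chain were listed far lower, among them Gapdh with 4.15, 5.92, 3.24 and 3.66 CPM, Pgk1 with 8.56, 6.91, 11.8 and 9.32 and Pgam1 with 5.07, 6.64, 5.497 and 5.59 CPM. Of their 50-base stretches, 58.4%, 67.96% and 41.5% also occur in transcripts of other annotated genes, pseudogenes included, against 0.283% for Mdh1, 6.83% for Tpi1 (83.4 ± 3.93 CPM) and 8.46% for Aldoa. How reads with several matches were counted is not given in the sources used here, so the levels of genes with near-identical copies are uncertain. The part of such copies in these levels was not tested.

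Nuclear genes of oxidative phosphorylation held 0.539, 0.532, 0.612 and 0.554% of the counts over 76 genes, of which 71 had at least 10 CPM. The share was highest in CD3, where 41 of the 71 genes had their highest value, against 34.2% of all 8597 genes. Ribosomal protein genes held a similar share, 0.535, 0.565, 0.590 and 0.542% over 88 genes, of which 63 had at least 10 CPM. Of these 88 genes, 29 shared at least 50% of their 50-base stretches with another gene, against 5.96% of all protein-coding genes. The median level of these 29 was 20.5 CPM, or 19.8 CPM per kb. That of the 10 ribosomal protein genes that shared under 10% was 53.7 CPM, or 17.5 CPM per kb. The order of the groups thus differed with the measure, and the part of shared sequence in these levels was not tested. No deposited symbol matched a mitochondrially encoded gene, so the share of these genes could not be given. The totals behind every share thus hold no counts under such a symbol.

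Senp1, the SUMO protease at the centre of the study, was a gene of modest level with 17.6, 19.1, 15.6 and 19.5 CPM. Of the other SENP genes, Senp6 had 92.5, 124, 103 and 96.7 CPM, Senp5 67.6 ± 8.60, Senp2 56.4 ± 3.82, Senp3 53.2 ± 2.83 and Senp7 11.95 ± 1.65 CPM, while Senp8 was under 10 CPM on average with 5.3996, 2.87, 13.1 and 5.09 CPM, highest in CD3. Of the modifiers, Sumo3 had 146, 143, 149 and 131 CPM and Sumo2 0.498, 0, 0.3103 and 0.8602 CPM, and 29.1% of the stretches of Sumo2 occur in other genes.

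Among 47 genes of redox control and SUMOylation, 41 had at least 10 CPM. Txnrd1, the cytosolic thioredoxin reductase, was highest with 241, 317, 244 and 247 CPM, led by CD2. Prdx6, a peroxiredoxin, had 176, 148, 198 and 163 CPM and Sod1, the cytosolic superoxide dismutase, 145, 139, 132 and 135 CPM. The thioredoxin-binding arrestin gene Txnip had 199, 206, 105 and 117 CPM, with the values of CD1 and CD2 above those of CD3 and CD4. Glutaredoxin genes were low: Glrx had 13.6, 30.1, 15.5 and 20.3 CPM, Glrx3 18.3 ± 4.27 and Glrx2 10.98 ± 3.03 CPM, with Glrx5 at 47.96 ± 3.17 CPM. Catalase (Cat), which β-cells are known to hold little of, had 1.99, 0, 1.42 and 2.796 CPM.

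Metallothioneins, small proteins that bind zinc, were among the most counted genes for their length. Mt1 had 1075, 1225, 1601 and 1566 CPM and Mt2 949, 1142, 1643 and 1284 CPM, and the class held 0.203, 0.237, 0.324 and 0.285% of the counts. The values of both genes were lowest in CD1 and highest in CD3, so that the class had a CV of 20.3%. Mt3 was at 5.81, 3.41, 1.06 and 1.51 CPM. Mtf1, the zinc-sensing factor that drives metallothionein genes, had 42.7, 50.6, 37.6 and 40.1 CPM. Of the zinc transporters, Slc39a7 of the ER and Golgi had 343, 416, 412 and 340.1 CPM, with 80.2% of its 50-base stretches in other genes, and the remaining ones listed other than Slc30a8 were under 100 CPM. Of the stretches of Mt2, 45.8% occur in another gene, so its level is less certain than that of Mt1.

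The promoters of Mt1 and Mt2 are shown because both genes carry metal response elements, whose core is TGCACNC or TGCGCNC. The stretches have the same extent relative to the start (GRCm38.p6, chr8:94178839-94179138, plus strand, and chr8:94172368-94172667, plus strand), with matches on either strand in capitals. There are 3 matches for Mt1 and 4 for Mt2, none of which overlap, and 25.6% of all promoters hold at least 1 and 0.503% hold 4 or more. The last match ends 26 bases after the start in Mt1 and 10 bases after it in Mt2.
Mt1: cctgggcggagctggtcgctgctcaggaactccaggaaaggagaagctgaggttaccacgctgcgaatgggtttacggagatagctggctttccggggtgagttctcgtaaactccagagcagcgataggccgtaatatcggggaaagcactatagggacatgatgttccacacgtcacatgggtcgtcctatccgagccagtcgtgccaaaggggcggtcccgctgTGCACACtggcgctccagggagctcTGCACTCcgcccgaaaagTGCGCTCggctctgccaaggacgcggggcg
Mt2: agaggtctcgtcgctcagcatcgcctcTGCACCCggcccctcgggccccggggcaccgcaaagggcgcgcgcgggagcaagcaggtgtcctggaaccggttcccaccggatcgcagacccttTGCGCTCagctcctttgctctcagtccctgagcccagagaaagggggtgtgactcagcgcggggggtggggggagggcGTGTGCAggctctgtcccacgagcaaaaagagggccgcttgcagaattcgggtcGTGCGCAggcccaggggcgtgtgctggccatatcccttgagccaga

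Long noncoding RNAs held 0.851, 0.8702, 0.868 and 0.890% of the counts over 1622 genes, with a CV of 1.85%. The greater part came from a few genes, of which Neat1 had 2394, 2578, 2344 and 2808 CPM, Malat1, which like Neat1 stays in the nucleus, 1644, 1443, 1772 and 1349 CPM, and Meg3, an imprinted RNA of mature β-cells, 1315, 1393, 1335 and 1496 CPM. Rian of the same cluster had 576, 636, 569 and 581 CPM. Imprinted genes included Peg3, with 2301, 2277, 2035 and 2266 CPM and CD3 lowest, and Gnas, which encodes the stimulatory G protein subunit, with 957, 912, 849 and 955 CPM. Of the 25 imprinted genes, 17 had at least 10 CPM. Dlk1, expressed in the fetal pancreas, had 0.498, 1.44, 1.15 and 1.94 CPM, and H19 had 0, 0, 0 and 1 counts. Snurf and Snrpn, which share a transcript, had the same counts in every library (54.7, 59.3, 59.2 and 62.2 CPM).

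Proliferation genes were mostly low. The exception was the D cyclin gene Ccnd2, a cyclin that β-cell growth in the mouse needs, with 727, 701, 845 and 797 CPM, followed by Ccnd1 with 187, 207, 214 and 186 and Cdk4 with 106, 122, 106 and 119 CPM. Mki67 had 15.1, 26.02, 18.4 and 18.6 CPM and Top2a 13.2, 12.9, 14.2 and 11.5 CPM, while Cdk1 had 2.99, 0, 2.88 and 4.37 CPM and Aurkb 0, 1.44, 0.931 and 0.932 CPM. Of the 27 genes, 12 had at least 10 CPM. Cdkn2a, the gene of the p16 and p19 inhibitors, had 0.332, 0.538, 0.443 and 1.004 CPM.

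Immediate early and heat shock genes varied widely and together. They held 1.14, 1.26, 0.647 and 0.695% of the counts, a CV of 33.3%, the highest among the classes that divide up the counts, with CD1 and CD2 above CD3 and CD4. Of the 22 genes of the list with at least 10 CPM, 19 had their 2 highest values in CD1 and CD2, a pair chosen after the values were seen, against 15.6% of all 8597 genes. Dnajb1, a co-chaperone of Hsp70, had 1145, 1338, 385 and 408 CPM, and Hsph1, an Hsp110 chaperone, 1103, 1357, 549 and 610.4 CPM. The inducible Hsp70 genes Hspa1a and Hspa1b had 323, 437, 101 and 94.9 CPM and 385, 542, 106 and 104 CPM, and 66.3 and 62.3% of their 50-base stretches occur in other genes, since they are near-identical copies, so that their split is uncertain. In all 4 genes the libraries CD1 and CD2 were high and CD3 and CD4 low.

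The same order held for factors that neurons and β-cells induce within minutes of activity. Fosb had 2166, 2178, 1109.6 and 1134 CPM, the nuclear receptor gene Nr4a1 854, 879.5, 471 and 446 CPM and Fos 747, 736, 406 and 498 CPM. Egr1 had 450.2, 556, 259 and 377 CPM and Jun 429.6, 594, 307 and 330.0 CPM. Jund, by contrast, was even with 1227, 1148, 1009.6 and 1170.3 CPM, and the activity-dependent factor gene Npas4, which is outside the list, was among the 10 most even genes of at least 100 CPM, with 121.9, 122.6, 125.2 and 122.8 CPM. Of the chaperone genes outside the list, the cytosolic Hsp90ab1 had 2573, 2955, 1605 and 1753 CPM, also with CD1 and CD2 highest. The libraries differed at the same time in other respects, given here beside the class: CD1 and CD2 had the smallest totals of counts and the lowest numbers of genes with a count. Their part in the spread of this class was not tested.

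The promoter of Hsph1 is shown as that of a gene in which the libraries lay far apart and which carries the heat shock element core, GAANNTTC or TTCNNGAA. RefSeq gives 2 overlapping windows, of which the first is printed (GRCm38.p6, chr5:149636287-149636586, minus strand). It holds 3 matches on either strand in capitals, the last 2 of which overlap, and 15.1% of all promoters hold at least 1. The last match ends 48 bases after the start. Neither of the 2 windows of Dnajb1 holds a match.
Hsph1: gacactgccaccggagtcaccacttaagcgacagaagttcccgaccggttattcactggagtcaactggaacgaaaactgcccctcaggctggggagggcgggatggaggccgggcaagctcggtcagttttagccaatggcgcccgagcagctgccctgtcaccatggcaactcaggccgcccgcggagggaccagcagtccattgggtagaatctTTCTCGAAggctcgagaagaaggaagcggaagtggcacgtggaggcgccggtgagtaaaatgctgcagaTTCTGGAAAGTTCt

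**Figure D3:**
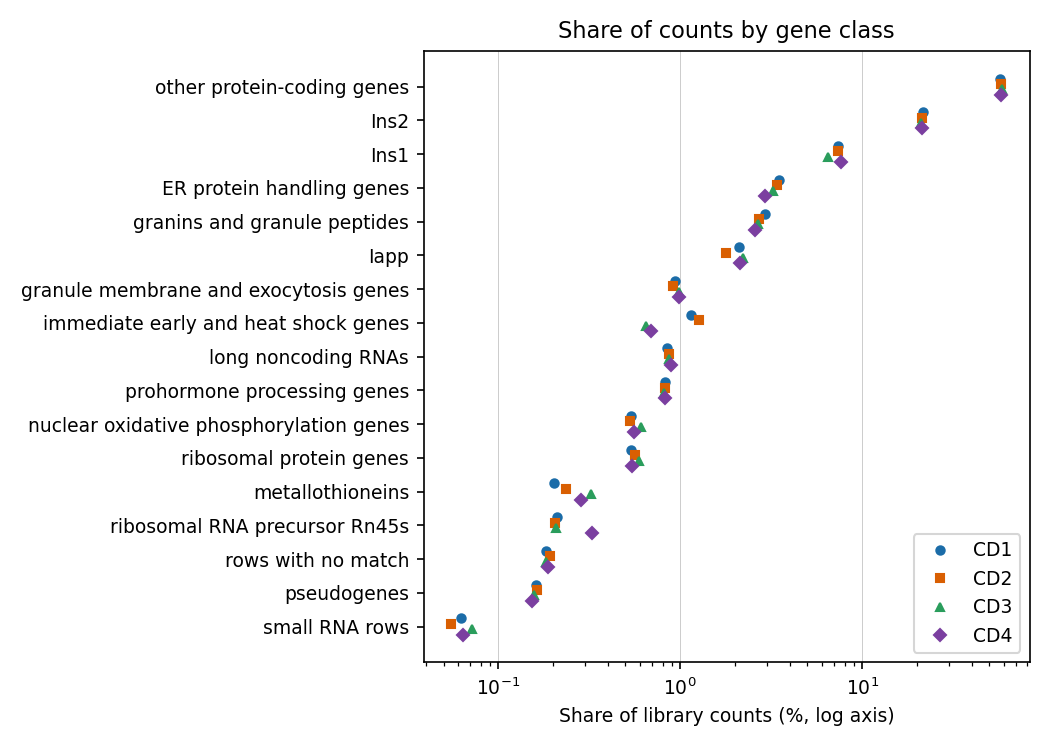
Share of library counts (%, log axis) by gene class, 1 point for each of the 4 chow libraries, where each gene is counted in 1 class. The prohormone processing genes lie within 0.813 to 0.826% in all libraries, while the immediate early and heat shock genes run from 0.647 to 1.26% and the metallothioneins from 0.203 to 0.324%.

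The spread between the 4 mice was smaller at higher levels. The median CV was 40.99% for genes of 1 to 10 CPM, 18.4% for 10 to 100 CPM, 10.5% for 100 to 1000 CPM and 8.31% for the 47 genes above. Counting alone would give medians of 13.2, 4.76, 2.14 and 0.683%, so the greater part of the spread lay between samples at every level. The common biological coefficient of variation of edgeR, which removes the counting part, was 26.8% over the genes that passed its filter on low counts, and 22.9% without CD3. Between pairs of libraries, Pearson's r of log2(CPM + 1) across the 8597 genes of at least 10 CPM, a description in which genes are not independent, was 0.971 for CD1 and CD4 and 0.916 for CD2 and CD3. No pair was so close as to be the same library deposited again: the median chi-square per gene against counting noise alone was 4.05 for CD1 and CD4, the closest pair.

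The 10 most even genes with at least 100 CPM included Ins2 and processing enzymes. After Pcsk2 and Cpe came Fam174b with 376, 376, 369.8 and 374 CPM, Agpat3 (a phospholipid acyltransferase, 120.3 ± 1.05 CPM), Srprb (a subunit of the signal recognition particle receptor, 115 ± 1.04 CPM) and Ins2. Next were Ctage5 (export of large cargo from the ER, 152 ± 1.68 CPM), Npas4, the anchoring protein gene Akap9 (119 ± 1.47 CPM) and the kinase gene Hipk3 (259.7 ± 3.38 CPM). Some of these CVs were below what counting alone would give, such as 0.817% against 1.39% for Fam174b.

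The most variable genes with at least 10 CPM were of the exocrine pancreas, with exceptions that were high in CD3. Of the 10 highest CVs, from 134 to 146%, 8 belonged to genes highest in CD2 (Sycn, Try5, Cel, Zg16, Cela3b, Cela1, 2210010C04Rik and Prss2). Sycn, Try5 and Zg16 passed the mean of 10 CPM only through CD2, so the limit itself favours their place here. The 2 others were Spp1 (osteopontin), with 2.82, 6.82, 53.02 and 4.301 CPM, and Nostrin, with 2.33, 5.38, 36.6 and 2.87 CPM, both high in CD3 alone and past 10 CPM only through it. In all, 242 genes had a CV over 50%, of which 180 were highest in CD3, 45 in CD2, 14 in CD1 and 3 in CD4. Of all 8597 genes, 34.2% were highest in CD3, 26.4% in CD2, 17.2% in CD1 and 22.1% in CD4. Some of the 242, such as those named above, passed 10 CPM only through the library where they were high. Without CD3 the number of genes with a CV over 50% was 111. Over 100% were 28 genes, of which 18 were listed acinar genes.

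**Figure D4:**
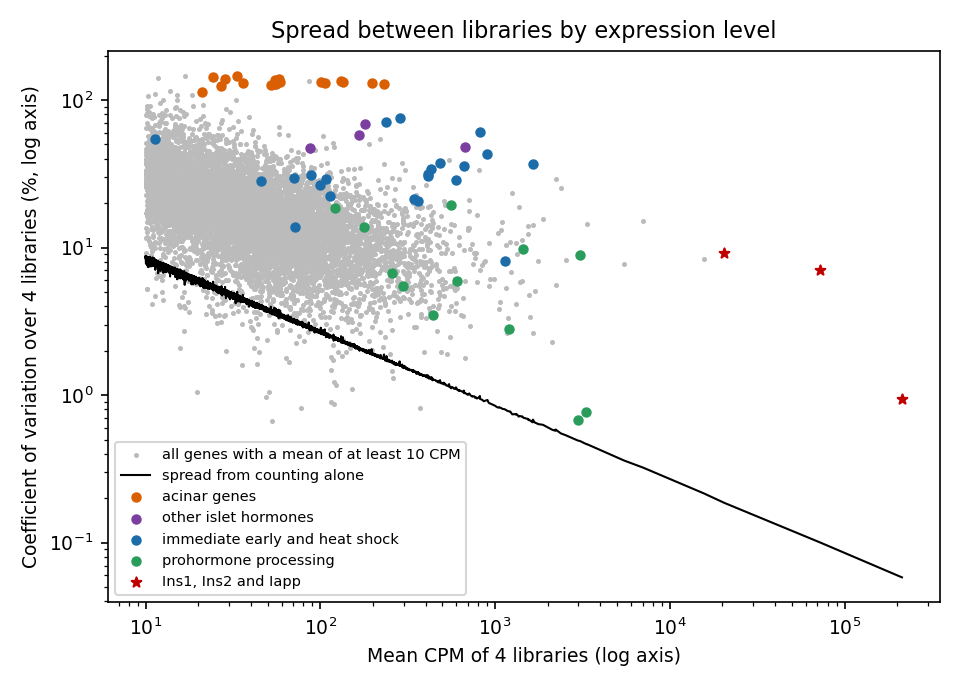
CV over the 4 chow libraries (%, log axis) against mean CPM (log axis) for 8597 genes (grey), with listed groups in colour and the spread expected from counting alone as a black line. The acinar genes form a band at 113 to 146% at every level, most of the immediate early and heat shock genes lie above most genes of their level, and Ins2, Pcsk2 and Cpe lie below 1%.

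Acinar transcripts, which encode digestive enzymes and should be absent from β-cells, were present in every library and differed most. There were 36 listed genes, of which 5 had no count, and the sums over the list were 99.3, 4254, 564 and 860.0 CPM. Ctrb1, chymotrypsinogen, had 19.3, 674, 90.7 and 142 CPM, Cela2a, an elastase, 11.9, 577, 77.9 and 119 CPM, and the lipase gene Pnlip 6.06, 397, 59.3 and 76.4 CPM. The 18 genes with a mean of at least 10 CPM stood in the same order, CD2 above CD4 above CD3 above CD1, an order read from these values and given as a description. Some of them, such as Sycn, Try5 and Zg16, passed 10 CPM only through CD2. The order is that of 3.78% of all 8597 genes. The level in CD2 was 20.4 to 132 times that in CD1. Within libraries the ratio of Cpa1 to Ctrb1 counts was the steadiest of those computed, at 0.431 to 0.461. That of Cel to Ctrb1 was the widest, at 0.0690 to 0.261. Those of Cela2a and Pnlip to Ctrb1 were 0.616 to 0.859 and 0.315 to 0.654, with CD1, which had the fewest counts of these genes, lowest in both. Clps and Try4 went the other way, with ratios to Ctrb1 highest in CD1, at 0.310 and 0.332. The share of the list was 0.144% of the counts on average and 0.0508% without CD2. Amylase genes, which are near-identical copies of each other, were near the floor, with 0.581, 2.42, 0.355 and 0.143 CPM for Amy2b and 0.831, 1.44, 0.355 and 0.789 CPM for Amy1.

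Hormones of other islet cells were low beside insulin and varied together. Sst of δ-cells had 354, 1068, 810.1 and 468 CPM, glucagon (Gcg) of α-cells 71.2, 283, 294 and 73.05 CPM, pancreatic polypeptide (Ppy) 83.8, 229, 269.9 and 83.9 CPM and peptide YY (Pyy) 44.7, 137, 103 and 64.4 CPM. All 4 were higher in CD2 and CD3 than in CD1 and CD4, a pattern read from these values, against 16.5% of all 8597 genes. The share of the 5 hormones, Ghrl included, was 0.0554, 0.172, 0.148 and 0.0689%. Pyy kept a ratio to Sst of 0.126 to 0.138, whereas that of Gcg to Sst ran from 0.156 to 0.363. Of the other α-cell and δ-cell markers, the vitamin D-binding protein gene Gc had 29.7, 49.7, 70.04 and 58.5 CPM and Rbp4, the retinol-binding protein gene, 19.9, 29.7, 40.4 and 15.8 CPM, both highest in CD3. Transcription factors that mark these cells were at or near 0: the α-cell factor gene Irx1 had 0, 0, 1 and 0 counts and the δ-cell factor gene Hhex 0, 29, 11 and 14 counts. Ghrelin (Ghrl), the remaining hormone of the list, had 5, 0, 3 and 0 counts and was not higher in CD2 and CD3.

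**Figure D5:**
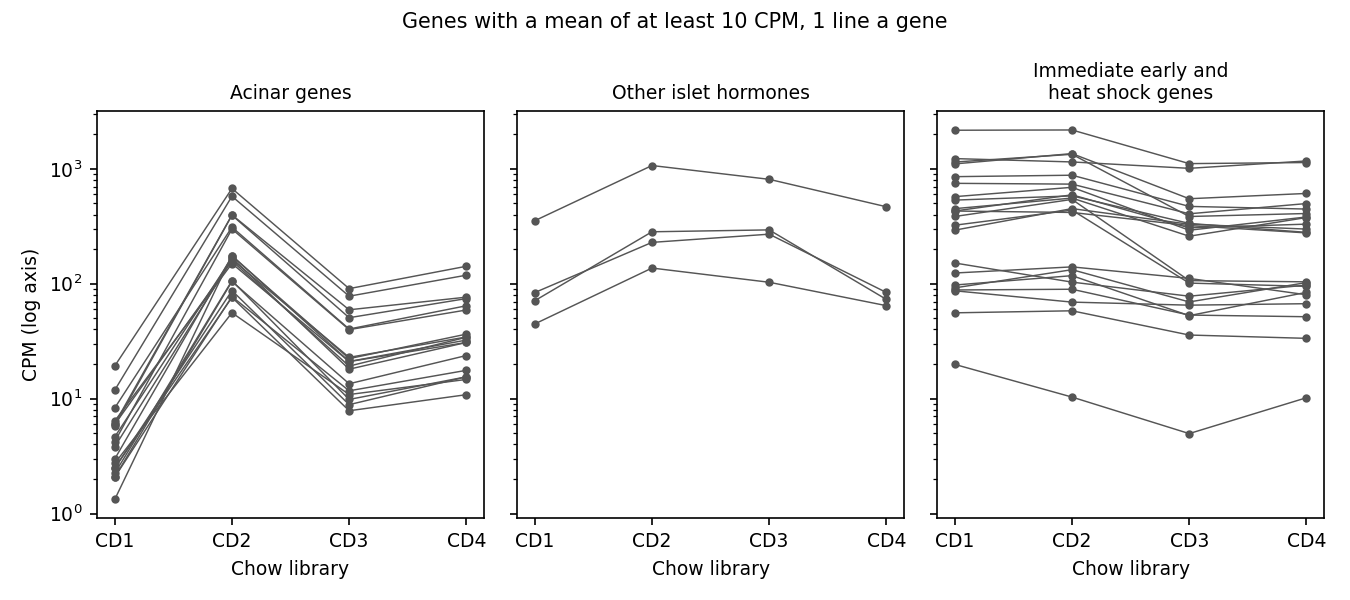
CPM (log axis) in the 4 chow libraries for listed genes with a mean of at least 10 CPM, 1 line for each gene: 18 acinar genes, 4 other islet hormones, and 22 immediate early and heat shock genes. Lines only link the values of a gene, since the libraries have no order. The acinar lines all have CD2 highest and CD1 lowest. The hormones are higher in CD2 and CD3, and most of the last group are higher in CD1 and CD2.

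Markers of the vessels, connective tissue and blood were close to 0. The 15 endothelial genes summed to 5.07, 5.47, 5.54 and 8.32 CPM, and Kdr, the VEGF receptor, had no count. The 15 stellate genes summed to 8.97, 17.9, 9.49 and 10.4 CPM, of which Col6a3 made up most with 8.97, 15.3, 9.09 and 9.61 CPM, while Col1a1 had 0, 0, 0 and 2 counts and Col3a1 none. All 9 erythroid genes had no count, and the 7 adipocyte genes summed to at most 0.143 CPM. The 11 lymphocyte genes summed to 6.06, 11.1, 5.23 and 6.595 CPM, mainly from the B-cell receptor gene Cd79a with 6.06, 2.96, 5.23 and 6.595 CPM, while Cd2 had 0, 4.04, 0 and 0 CPM.

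The macrophage list summed to 80.9, 107, 58.2 and 60.2 CPM over 19 genes, and a single gene, C1qa, held the larger part of it outside CD2. C1qa had 66.5, 50.96, 39.6 and 45.5 CPM, while its partner chains in the complement complex were nearly absent, with 0, 0, 9 and 0 counts for C1qb and 0, 0, 4 and 0 for C1qc. The class II genes H2-Ab1 and H2-Eb1 had 0.997, 13.5, 1.02 and 0.502 CPM and 1.33, 11.4, 1.29 and 0.4301 CPM, and the leukocyte gene Ptprc had 0, 2.51, 0 and 0 CPM, all with CD2 highest. CD2 thus had the highest sums of the acinar, macrophage, stellate and lymphocyte lists. The members of the macrophage and lymphocyte lists with the highest means did not follow: C1qa was highest in CD1, and Cd79a was lowest in CD2. The part of other cells in the values of CD2 was not tested.

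The ductal list gave a steady sum of 832, 829.8, 818 and 891 CPM that came mainly from keratin genes. Krt18 had 596, 581, 493 and 609.8 CPM and Krt7 179, 187, 217 and 210.1 CPM, and the keratin 8 gene Krt8, which pairs with keratin 18 and is outside the list, had 1319.6, 1055, 1077 and 1146 CPM. The duct-defining genes Krt19 and Cftr were low, with 1.16, 0, 2.04 and 2.796 CPM and 0, 0, 0 and 3 counts. In the Schwann cell list Mbp had 94.9, 102, 160.3 and 127 CPM, while Sox10, S100b and Gfap had no count. Spp1, whose values are given with the most variable genes, is also a ductal marker.

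Genes used as references in qPCR were of uneven value in these libraries. Eef1a1 had 1126, 1174, 1212 and 1207 CPM and a CV of 3.35%, Rpl13a 301, 301, 314 and 281 CPM, and Sdha, a subunit of complex II, 192, 190.5, 218 and 209 CPM. Of the stretches of Eef1a1 and Rpl13a, 53.6% and 41.1% occur in other genes, against 0% for Sdha. Actb had 2117, 2100.4, 1499 and 1803 CPM, with CD1 and CD2 highest. Ppia had 2, 6, 7 and 9 counts, and 32.4% of its stretches occur in other genes. Hprt with 86.6, 81.6, 122.8 and 80.9 CPM and Gusb with 34.97, 35.2, 47.3 and 34.98 CPM were highest in CD3.

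All 4 libraries held Y-linked transcripts, with 114, 119, 121 and 111 CPM for Ddx3y and 43.6, 54.3, 41.9 and 34.1 CPM for Eif2s3y. Xist, the RNA of the inactive X chromosome, had 7, 0, 4 and 6 counts. The CVs of the Y-linked pair were 4.03% and 19.2%.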

How the data were processed

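RNA-seq of sorted β-cells from 4 chow-fed mice was analysed. The authors deposited a table of raw read counts for each gene symbol, 1 column a library, and the 3 columns of the high-fat diet were not used. The submitters' processing notes name mm10 and edgeR, while the sources used here do not give the aligner, counter, read length, use of strand or annotation release. Of 24062 rows, 27 carry a date in place of a symbol (0.122 to 0.155% of counts) and were left out. CPM were computed on the total of the other 24035. Symbols were matched to GENCODE M21 (GRCm38) by name (22724) or synonym (930), and 381 were unmatched. CPM per kb used the longest annotated transcript. Sharing of sequence is the percent of 50-base stretches of a gene's protein-coding transcripts that occur, as exact matches, in transcripts of another gene. Promoters are those of RefSeq (GRCm38.p6).

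The spread is the SD or CV over 4 mice, and the biological coefficient of variation came from edgeR 4.0.16 (TMM scaling, its filter on low counts, no covariates), with DESeq2 1.42.0 as an alternative, in R 4.3.3. Other steps used Python 3.11.15 with pandas 2.3.3, scipy 1.17.1 and matplotlib 3.10.9. With 1 group, no difference between groups was tested; a library apart from the other 3 was found by Dixon's critical value. Intervals (Wilson, 95%) and the limit of 3 counts for a count of 0 cover counting error only. The dispersion step was tested on simulated data.

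Genes were named by rule: Ins1, Ins2, Iapp and Chga, the 20 highest by CPM, the 10 next per length, up to 4 highest and 2 lowest of each of 33 lists, the 10 highest CVs (from 10 CPM), the 10 lowest (from 100 CPM), Senp1, sex-linked genes and list members with a library apart. Other list members were named for their function after their values were seen, and some genes are not reported here. Members and lists were chosen with earlier results of these data known. Alternatives were other denominators, scalings, filters and lengths and leaving out each library; those for the class of immediate early and heat shock genes, for CVs over 50% and the limit to protein-coding genes in ranks per length were chosen after seeing the data.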

Additional observations from a re-analysis of the deposited data

Results flagged for a closer look

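Members of the lists in which a single library lay apart from 3 that were close together are given here with the value of that library, where the gap to the nearest other library, as a part of the whole range, was above Dixon's 95% critical value for 4 samples. Chance alone gives about 1 in 20, and 35 of 415 genes looked at (8.43%) were past the limit, while among all 8597 genes of at least 10 CPM it was 7.03%. Of the 604 genes past the limit among these 8597, CD3 was apart on the high side for 272 and CD2 for 89. The counts by library given below thus hold for the listed genes only.

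CD2 was the library apart on the high side for 14 genes. Among them were the acinar genes Cela3b (168 CPM), Try4 (149.8), Sycn (106), Zg16 (87.1) and Try5 (76.1), the class II genes H2-Ab1 (13.5) and H2-Eb1 (11.4), the T-cell gene Cd2 (4.04) and the collagen gene Col6a3 (15.3 CPM). The others were Txnrd1 (317 CPM), Got2 of the malate and aspartate shuttle (54.6), Nnat (49.3), Rrm2 of nucleotide synthesis (5.38) and Zfp36l1 (4.76 CPM). The sum of the stellate markers was also highest in CD2, at 17.9 CPM. CD2 was lowest for the lysosomal gene Psap (1236 CPM), the phosphofructokinase gene Pfkm (50.2) and Gclc of glutathione synthesis (22.3 CPM).

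CD3 was high for Scg5 (722 CPM), the ribosomal protein gene Rplp0 (366), Hprt (122.8), Spp1 (53.0), Gusb (47.3), Nostrin (36.6) and Gast (5.10 CPM). It was low for Peg3 (2035 CPM) and the galanin receptor gene Galr1 (26.6 CPM). CD4 was high for Rn45s (3289 CPM), the noncoding RNA Mirg (32.3) and Pkhd1 (18.6 CPM), and in the sum of endothelial markers (8.32 CPM), and low for Pdia6 (724 CPM) and the glycerophosphate dehydrogenase gene Gpd2 (71.5 CPM). CD1 was high for Pcsk2 (3004 CPM), although the whole range of that gene is narrow, and low for Acly (1557 CPM), Slc30a8 (996) and Syt13 (902 CPM).

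The entries with a date in place of a symbol, which no other value uses, held up to 0.155% of the counts of a library.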

How the results depend on the processing

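No paired analysis was possible because the values describe 1 group and come from no test. The share of the insulin genes ran from 28.4 to 28.9% under the alternatives. The number of genes at 1 CPM in all 4 libraries was 11055. It was 11021, the lowest, with counts thinned to the smallest total and 12921, the highest, when 1 CPM in at least 1 library was enough. With Ins1 and Ins2 left out of the total, shares were higher by construction: ribosomal protein genes 0.781%, nuclear oxidative phosphorylation genes 0.783%, ER protein handling genes 4.58%, immediate early and heat shock genes 1.31%, and ductal, endothelial, stellate and macrophage markers 0.118, 0.000854, 0.00164 and 0.0107%, while the 10 and 100 highest of the other genes held 9.33 and 21.7%. The biological coefficient of variation was 38.6% with no filter, 22.5% from 10 CPM up and 18.3% as the median of DESeq2's estimates, over other sets of genes or by another summary. Leaving out each library in turn gave 22.9 to 29.7% for it (lowest without CD3), 111 to 375 genes with a CV over 50% (242 with all; lowest without CD3, highest without CD4), 28.4 to 28.9% for insulin, 0.0508 to 0.189% for acinar markers (lowest without CD2), 0.0907 to 0.129% for other islet hormones and 0.827 to 1.03% for immediate early and heat shock genes. It gave 3.20 to 3.38% for ER protein handling genes and 0.000962 to 0.00126% for stellate markers. Of the 30 highest genes per length, 26 stayed among the first 30 with the union of exons as length and 21 with the median transcript. The alternatives for mitochondrially encoded genes gave no value. Depth limits genes under about 10 CPM, where counting adds to the spread, and 3 counts correspond to 0.133 to 0.269 CPM.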

Other observations

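Some genes were found in a single library. At 1 CPM or more in 1 library and without a count in the 3 others were 4 genes for CD1, 83 for CD2, 10 for CD3 and none for CD4. At 10 CPM or more, CD3 was the highest library for 2944 of 8597 genes and the lowest for 2650.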
